A study of Mus musculus with 10 samples.

Results

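The core cardiac transcription factors are the DNA-binding proteins that specify heart muscle in the embryo and hold its gene program in the adult. The 10 genes described here were taken by name: Gata4 and Gata6, Nkx2-5, Tbx5 and Tbx20, Mef2a, Mef2c, Mef2d and Srf, and Hand2. The count table listed values for 57185 genes, of which 13453 passed the filter on low counts (counts above 10 in 6 or more of the 10 mice, with Gm and Rik gene models left out). All 10 factors were among the genes tested, with raw counts of 549 to 10034 per mouse.

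Bulk RNA-seq of the apical part of the ventricle was compared between 2 genotypes on the same disease background, with 5 male mice and 1 library per mouse in each. Both groups lacked muscle LIM protein (MLP, the product of Csrp3), a loss that causes dilated cardiomyopathy in mice, and both carried Rrad alleles flanked by loxP sites. All animals received a single intraperitoneal dose of 100 mg/kg tamoxifen at 10 weeks. The labels give an age of 16 weeks and a time of 1 month after tamoxifen at harvest. With tamoxifen at 10 weeks these do not match, so the exact time since tamoxifen is uncertain. In the cRADΔ/Δ-MLPKO mice, a MYH6-MerCreMer transgene deleted Rrad, which encodes RAD, an inhibitor of the L-type calcium channel. The Myh6 promoter limits this deletion to cardiomyocytes, so other cells of the ventricle kept the gene. The MLPKO mice carried no Cre transgene, so effects of Cre with tamoxifen and effects of RAD loss cannot be told apart. The question for these 10 genes was whether the level of their RNA differed between hearts without MLP that had or lacked RAD in the cardiomyocytes. The paper reports better systolic function and smaller ventricular chambers in cRADΔ/Δ-MLPKO than in MLPKO mice after tamoxifen. Heart function therefore differed along with genotype in this model, and its part in the values of these genes was not tested.

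These factors bind DNA as partners. GATA4 and GATA6 are zinc finger proteins that recognise GATA sequences, NKX2-5 is a homeodomain protein, and TBX5 and TBX20 are T-box proteins, of which TBX5 is mostly an activator and TBX20 can also repress. The MEF2 proteins and SRF are MADS-box proteins that bind the A/T-rich MEF2 site and the CArG box, respectively, and HAND2 is a basic helix-loop-helix protein that binds E-boxes. In the postnatal heart GATA4, the MEF2 proteins and SRF are best known as end points of hypertrophic signalling, where kinases and histone deacetylases set their activity without any need for a change in their RNA.

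Libraries held 33457406 to 49965101 counts, and no label gave a batch within them. Each library came from a separate animal, so p-values weigh the difference between genotypes against the spread between mice. Rrad had 5774 to 11644 normalized counts in MLPKO and 5562 to 8361 in cRADΔ/Δ-MLPKO mice, and the groups overlapped (edgeR quasi-likelihood test, adjusted p = 0.290). Csrp3 was counted in all 10 mice at 28553 to 134796. A gene total cannot show which exons the reads came from, so neither value checks the genotype labels. A normalized count here is the raw count divided by the library's TMM-scaled size relative to the mean of the 10 libraries.

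None of the 10 factors passed an adjusted p of 0.05 with edgeR's quasi-likelihood test and Benjamini-Hochberg adjustment over the 13453 genes, beside 2.74% of all genes tested (1.80% lower and 0.944% higher in cRADΔ/Δ-MLPKO). At an unadjusted p of 0.05, 5 of the 10 passed (4 lower, 1 higher), against 21.6% of all genes (11.5% lower and 10.1% higher). DESeq2 called 4 of them, Gata4, Tbx20 and Mef2c lower and Tbx5 higher, against 10.0% of all genes with an adjusted p (6.09% lower, 3.96% higher). Limma-voom called 0 of the 10 and 2.53% of all genes. The values of the 2 genotypes did not overlap for 1 factor, Gata4, as against 6.62% of all genes (3.98% lower, 2.64% higher). The log2 fold changes of cRADΔ/Δ-MLPKO over MLPKO ran from -0.38 for Hand2 to 0.49 for Tbx5, 7 below 0 and 3 above, with a median of -0.13 beside 0.01 over all genes tested. Their median size was 0.23 beside 0.14 over all genes. The 95% intervals of all 10 lay between -0.69 and 0.76, so a doubling or a halving of any factor was outside its interval. In bulk tissue, fewer cells that express a factor and less of its RNA per cell cannot be told apart.

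**Figure D1:**
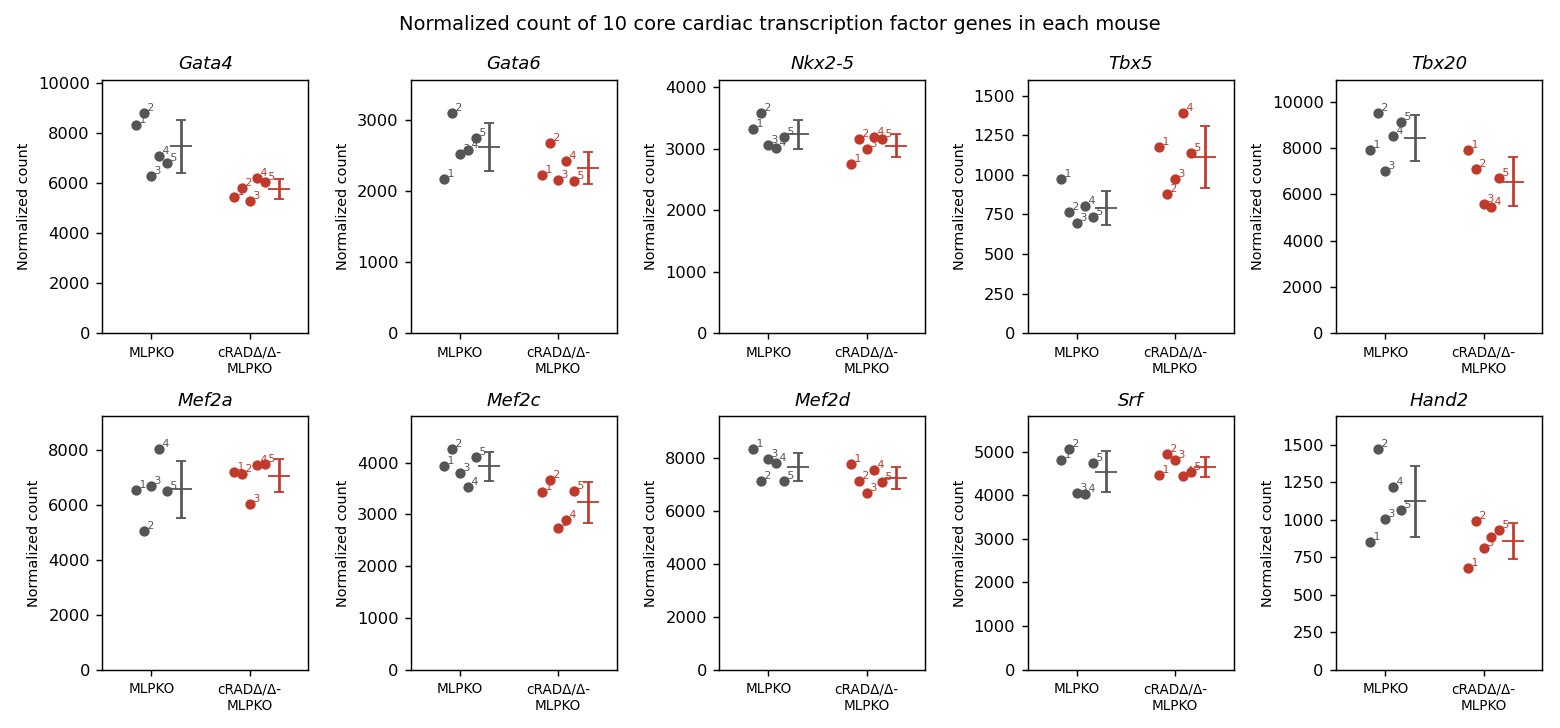
Normalized count (vertical axis, from 0) of each factor in each mouse, MLPKO in grey and cRADΔ/Δ-MLPKO in red, with the number of the mouse beside its point and the mean ± SD (n = 5) to the right. Only the Gata4 points of the genotypes do not overlap, with 6280 as the lowest MLPKO and 6198 as the highest cRADΔ/Δ-MLPKO value.

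Gata4 (ENSMUSG00000021944, GRCm39 chr14:63436362-63509141, minus strand) encodes the zinc finger factor that drives Nppa, Nppb and contractile genes under load. Its normalized counts were 8299, 8796, 6280, 7074 and 6802 in MLPKO mice 1 to 5, and 5443, 5799, 5288, 6198 and 6027 in cRADΔ/Δ-MLPKO mice 1 to 5. The MLPKO mice spread more widely, with mice 1 and 2 well above the other 3, and every cRADΔ/Δ-MLPKO mouse lay below the lowest of them. The mean was 7450 ± 1056 against 5751 ± 383 (SD, n = 5 each), 22.8% lower, a log2 fold change of -0.37 (SE 0.09, 95% interval -0.58 to -0.17). The edgeR quasi-likelihood adjusted p was 0.0557, just above the threshold, and DESeq2 gave 0.00588. Of the 10 edgeR fits that left out 1 mouse, 2 called Gata4. Their quasi-likelihood adjusted p was 0.0409 without MLPKO mouse 3 and 0.0458 without MLPKO mouse 4. The others did not pass, at adjusted p of up to 0.120.

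Gata6 (ENSMUSG00000005836, chr18:11051565-11086995, plus strand), the other GATA factor of adult cardiomyocytes, had 2180, 3109, 2526, 2582 and 2746 normalized counts in MLPKO and 2236, 2678, 2162, 2430 and 2148 in cRADΔ/Δ-MLPKO mice. MLPKO mouse 1 lay among the cRADΔ/Δ-MLPKO mice, and mouse 2 stood highest of all 10. The mean was 11.3% lower, with a log2 fold change of -0.17 (95% interval -0.38 to 0.03) that did not pass the test (edgeR quasi-likelihood adjusted p = 0.317).

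The balance of the GATA genes was read within each library, where library scaling cancels out. Per kilobase of exon, the Gata4 to Gata6 ratio was 6.17, 4.58, 4.03, 4.44 and 4.01 in MLPKO and 3.94, 3.51, 3.96, 4.13 and 4.55 in cRADΔ/Δ-MLPKO mice. The ratio overlapped between the genotypes, and MLPKO mouse 1, with high Gata4 and low Gata6, stood alone at the top.

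Nkx2-5 (ENSMUSG00000015579, chr17:27057638-27063983, minus strand), the homeobox gene that marks cardiac precursors from their earliest stage, was among the steadiest of the 10. It had 3325, 3584, 3053, 3006 and 3197 normalized counts in MLPKO and 2746, 3155, 3002, 3184 and 3155 in cRADΔ/Δ-MLPKO mice. The groups overlapped between 3006 and 3184, with MLPKO mice 1, 2 and 5 above that range and cRADΔ/Δ-MLPKO mice 1 and 3 below it. The mean was 5.71% lower and a log2 fold change of -0.08 (SE 0.06, 95% interval -0.23 to 0.06). Its edgeR quasi-likelihood adjusted p was 0.486.

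The T-box genes lay on opposite sides of 0. Tbx5 (ENSMUSG00000018263, chr5:119970733-120023284, plus strand), which partners GATA4 and NKX2-5 and in adult hearts maintains atrial and conduction genes, had 973, 764, 694, 803 and 737 normalized counts in MLPKO and 1180, 879, 974, 1394 and 1141 in cRADΔ/Δ-MLPKO mice. MLPKO mouse 1 reached into the other group, above mouse 2 and at the level of mouse 3 of cRADΔ/Δ-MLPKO, and the remaining 4 MLPKO mice lay below all 5. The mean was 794 ± 108 against 1113 ± 199 (SD, n = 5 each), 40.3% higher, for a log2 fold change of 0.49 (SE 0.13, 95% interval 0.21 to 0.76). It missed the threshold with edgeR (quasi-likelihood adjusted p = 0.0609) and passed with DESeq2 (0.00996).

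Tbx20 (ENSMUSG00000031965, chr9:24629434-24685599, minus strand), which the adult myocardium needs for its contractile and ion channel genes, had 7911, 9536, 7031, 8541 and 9150 normalized counts in MLPKO and 7909, 7122, 5572, 5438 and 6716 in cRADΔ/Δ-MLPKO mice. MLPKO mouse 3 fell below cRADΔ/Δ-MLPKO mice 1 and 2, so the groups overlapped. The mean was 22.3% lower, with a log2 fold change of -0.36 (SE 0.11, 95% interval -0.61 to -0.11). The edgeR quasi-likelihood adjusted p was 0.0970, and that of DESeq2 was 0.0330.

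Within each library, Tbx20 exceeded Tbx5 per kilobase of exon by 3.19, 4.89, 3.97, 4.17 and 4.87 times in MLPKO and by 2.63, 3.18, 2.24, 1.53 and 2.31 times in cRADΔ/Δ-MLPKO mice. The mean ratio was 4.22 ± 0.707 and 2.38 ± 0.601 (SD, n = 5 each). The groups met without overlap, at MLPKO mouse 1 and cRADΔ/Δ-MLPKO mouse 2. This ratio was formed from genes whose opposite signs were already known and is given as a description with no test.

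Mef2a (ENSMUSG00000030557, chr7:66880911-67022606, minus strand), which in the adult heart maintains mitochondria and the costameres that anchor sarcomeres, had 6532, 5065, 6697, 8014 and 6500 normalized counts in MLPKO and 7198, 7134, 6021, 7435 and 7491 in cRADΔ/Δ-MLPKO mice. MLPKO mouse 2, highest of all 10 for most other factors, was lowest here, and cRADΔ/Δ-MLPKO mouse 3 was the lowest of its own group. The log2 fold change was 0.10 (95% interval -0.13 to 0.34; edgeR quasi-likelihood adjusted p = 0.617), and it was 0.02 without MLPKO mouse 2.

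Mef2c (ENSMUSG00000005583, chr13:83652064-83815555, plus strand), the MEF2 gene that the embryonic heart tube requires, had 3942, 4254, 3797, 3520 and 4115 normalized counts in MLPKO and 3430, 3659, 2735, 2894 and 3457 in cRADΔ/Δ-MLPKO mice. The groups met only where cRADΔ/Δ-MLPKO mouse 2 lay above MLPKO mouse 4. The mean was 17.6% lower, with a log2 fold change of -0.28 (SE 0.09, 95% interval -0.47 to -0.09) at an edgeR quasi-likelihood adjusted p of 0.0951 and a DESeq2 adjusted p of 0.0399.

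Mef2d (ENSMUSG00000001419, chr3:88049185-88079398, plus strand), the MEF2 member tied to stress-induced hypertrophy, had 8340, 7128, 7960, 7840 and 7145 normalized counts in MLPKO and 7795, 7155, 6694, 7559 and 7092 in cRADΔ/Δ-MLPKO mice. The groups overlapped, and the log2 fold change was -0.08 (SE 0.06, 95% interval -0.22 to 0.06; edgeR quasi-likelihood adjusted p = 0.497). Of the RNA of the 3 MEF2 genes per kilobase of exon, Mef2d made up 60.6% and 59.6% on average in MLPKO and cRADΔ/Δ-MLPKO mice, Mef2a 25.5% and 28.6%, and Mef2c 13.9% and 11.9%. Each of these shares overlapped between the genotypes.

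Srf (ENSMUSG00000015605, chr17:46857767-46867119, minus strand) encodes serum response factor, which with its partner myocardin drives actin and other cytoskeletal genes through the CArG box. The 219 bases before its annotated start held 2 CArG boxes and are shown because this is the element that SRF itself binds. The window came from the RefSeq promoter table (GRCm38.p6), was placed by exact match at chr17:46867120-46867338 of GRCm39 (minus strand) and reads 5′ to 3′, with the CArG boxes in capitals:
Srf: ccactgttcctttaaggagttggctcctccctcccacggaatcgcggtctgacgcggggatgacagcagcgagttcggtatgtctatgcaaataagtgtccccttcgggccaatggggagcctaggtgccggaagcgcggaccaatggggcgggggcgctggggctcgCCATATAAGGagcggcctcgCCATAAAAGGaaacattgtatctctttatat
The boxes lie 82 to 73 and 62 to 53 bases before the RefSeq start. A CArG box occurred in 1.47% of the 32851 promoter windows of 250 bases in that table. Such a match describes letters and is not evidence of binding.

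Srf had 4813, 5048, 4051, 4020 and 4748 normalized counts in MLPKO and 4454, 4946, 4807, 4429 and 4539 in cRADΔ/Δ-MLPKO mice. The range of the cRADΔ/Δ-MLPKO mice lay inside that of the MLPKO mice. The log2 fold change was 0.03 (SE 0.07, 95% interval -0.13 to 0.19; edgeR quasi-likelihood adjusted p = 0.850), the smallest in size of the 10, and it turned to -0.00062 without MLPKO mouse 3 and to -0.0091 without MLPKO mouse 4.

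Hand2 (ENSMUSG00000038193, chr8:57774011-57777677, plus strand) encodes the helix-loop-helix factor that the right ventricle and outflow tract need in the embryo. Its window was the only one among those of the factors to hold a GATA site (AGATAA on either strand, with T also taken as its first letter and G as its last), the element bound by GATA4 and GATA6, and is shown for that reason. The 243 bases before its annotated start at chr8:57773768-57774010 of GRCm39 (plus strand, sequence from the RefSeq table, GRCm38.p6) read 5′ to 3′, with the 2 GATA matches in capitals:
Hand2: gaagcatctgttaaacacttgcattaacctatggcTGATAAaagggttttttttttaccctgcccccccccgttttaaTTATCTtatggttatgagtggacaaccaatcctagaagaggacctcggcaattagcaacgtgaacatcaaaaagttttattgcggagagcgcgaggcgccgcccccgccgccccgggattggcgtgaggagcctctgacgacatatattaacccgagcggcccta
The matches lie 215 to 210 and 172 to 167 bases before the RefSeq start, the second on the opposite strand. A GATA site occurred in 26.5% of all promoter windows, so such a match is common.

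Promoter windows were read for 7 of the 10 factors, Nkx2-5, Tbx20, Mef2a, Mef2c, Mef2d, Srf and Hand2, with 9 windows in all because Mef2c has 3 starts. Some RefSeq starts lay inside the annotated gene. The distance from the annotated start was 3444 bases for Nkx2-5, 494 for Mef2d and 89, 19711 and 69662 for Mef2c. The T-box site AGGTGT was found in 1 of the 9, at a Mef2c start, and in 11.8% of all windows. The NKX2-5 site TNAAGTG was found in 0 of the 9 and in 10.1% of all. The MEF2 site was found in 0 of the 9 and in 2.92% of all. An E-box (CANNTG), the element of HAND2 and many other helix-loop-helix proteins, was found in 4 of the 9, at Hand2, Nkx2-5 and Mef2c starts, and in 66.2% of all. Both strands were searched for each.

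Hand2 had 848, 1469, 1008, 1222 and 1066 normalized counts in MLPKO and 679, 991, 811, 885 and 930 in cRADΔ/Δ-MLPKO mice. MLPKO mouse 1 lay inside the cRADΔ/Δ-MLPKO range and mouse 2 far above it, so this was the factor with the widest spread within genotypes. The mean was 1122 ± 235 against 859 ± 120 (SD, n = 5 each), 23.5% lower, with a log2 fold change of -0.38 (SE 0.14, 95% interval -0.69 to -0.07). It did not pass with edgeR (quasi-likelihood adjusted p = 0.144) or DESeq2 (0.0803), and without MLPKO mouse 2 the log2 fold change was -0.27.

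**Figure D2:**
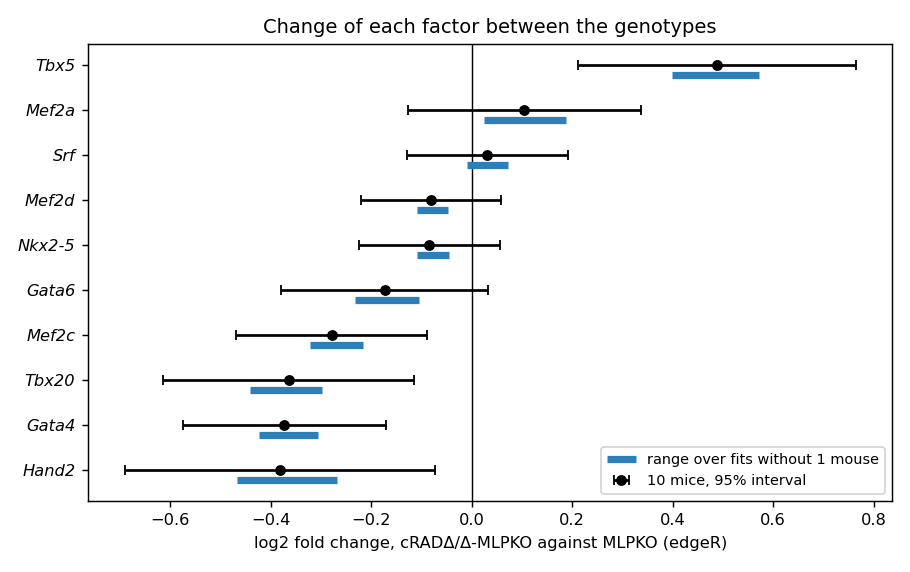
Log2 fold change of cRADΔ/Δ-MLPKO over MLPKO for each factor (horizontal axis), with its 95% interval from edgeR in black and, in blue, the range of the estimate when each mouse was left out in turn. The intervals of Gata4, Tbx20, Mef2c and Hand2 lie below 0 and that of Tbx5 above it, and only the blue range of Srf crosses 0.

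MLPKO mouse 2 had the highest value of the 10 mice for 7 of the 10 factors and the lowest for Mef2a, whereas over all genes tested it was highest for 19.8% and lowest for 20.4%. The SD within genotypes on the log2 scale ran from 0.09 for Mef2d to 0.26 for Hand2, with a median of 0.16 over the factors beside 0.18 over all genes tested. Leaving that mouse out took Gata4 to a log2 fold change of -0.31 at an adjusted p of 0.0693 in the edgeR quasi-likelihood test.

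Several factors have a transcript annotated against them. By the rule of an overlap with the gene or a start within 5000 bases of its start, 13 genes lay beside 9 of the 10 factors, of which 9 are long non-coding RNAs and 3 were in the main test. How the authors' counting treated strand is not given in the sources used here, so reads of a factor and of an overlapping antisense gene cannot be told apart.

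Hand2os1 (chr8:57734152-57782056, minus strand), a long non-coding RNA that spans Hand2 from the opposite strand, shares 468 exon bases with it, 19.8% of the exon length of Hand2. All 243 promoter bases shown for Hand2 also lie within annotated exons of Hand2os1. It had 1706, 2222, 1622, 1652 and 1520 normalized counts in MLPKO and 1382, 1218, 1033, 1365 and 1208 in cRADΔ/Δ-MLPKO mice. Every cRADΔ/Δ-MLPKO mouse lay below every MLPKO mouse, and Hand2os1 fell, with a log2 fold change of -0.49 (SE 0.11, 95% interval -0.73 to -0.25; edgeR quasi-likelihood adjusted p = 0.0397, DESeq2 0.00180). The call was lost in 7 of the 10 fits that left out 1 mouse (MLPKO mice 1, 3 and 5 and cRADΔ/Δ-MLPKO mice 2, 3, 4 and 5), at adjusted p of 0.0554 to 0.0984. MLPKO mouse 2 was highest for both Hand2 and Hand2os1.

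Gm49390 (chr14:63506623-63597491, plus strand), a long non-coding RNA whose start lies 2518 bases inside Gata4 on the opposite strand, shares no exon bases with it. It had 76.4, 38.0, 170, 149 and 52.0 normalized counts in MLPKO and 158, 152, 158, 225 and 227 in cRADΔ/Δ-MLPKO mice. All MLPKO mice except mouse 3 lay below the cRADΔ/Δ-MLPKO range. In a fit that kept predicted genes its log2 fold change was 0.91 (SE 0.36) and did not pass (edgeR quasi-likelihood adjusted p = 0.171).

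The other neighbours did not pass. Gata6os, which shares 1154 exon bases with Gata6, had a log2 fold change of 0.12 (edgeR quasi-likelihood adjusted p = 0.461), and Lysmd4, a protein-coding gene that shares 1081 exon bases with Mef2a, had 0.15 (0.387). In the fit with predicted genes kept, Gm43050 beside Tbx5 had 0.30 (0.341), Gm34030 beside Hand2 had -0.32 (0.268), Gm44667 beside Mef2a had 0.42 (0.556) and Gm56779 beside Mef2d had 0.07 (0.931). Gm43050 shares 194 exon bases with Tbx5, Gm34030 201 with Hand2, Gm56779 181 with Mef2d and Gm44667 0 with Mef2a. Gm29824, Gm44668, Gm55122, 1700113A16Rik and Mir6976 had at most 20 raw counts in a mouse and were not tested in that fit.

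**Figure D3:**
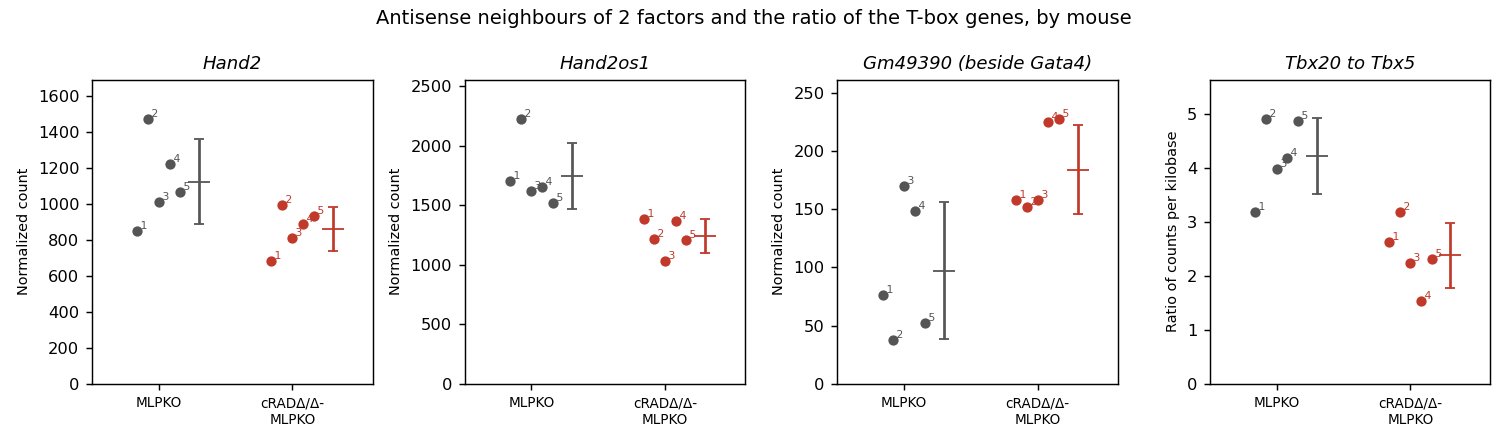
Normalized counts of Hand2, of its antisense neighbour Hand2os1 and of Gm49390 beside Gata4, and the Tbx20 to Tbx5 ratio of counts per kilobase of exon, in each mouse (MLPKO grey, cRADΔ/Δ-MLPKO red, mean ± SD of 5 mice to the right of the points). Hand2os1 and the ratio are lower in every cRADΔ/Δ-MLPKO mouse than in any MLPKO mouse, and the other panels overlap.

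Levels were compared between genes as normalized counts per kilobase of annotated exon. Nkx2-5 was the highest at a mean of 1827 over the 10 mice, followed by Gata4 at 1160, Srf at 1039 and Mef2d at 975. Tbx20 at 625, Mef2a at 439 and Hand2 at 419 stood in the middle, and Gata6 at 269, Mef2c at 209 and Tbx5 at 203 were lowest. With the genes ordered by the mean of each genotype in turn, the ranges of neighbours were apart at 2 places in both genotypes, below Nkx2-5 and below Mef2d, and those of all other neighbours overlapped. The places that changed between genotypes were all between such neighbours: Gata4 stood above Srf in MLPKO and below it in cRADΔ/Δ-MLPKO mice, Hand2 above and then below Mef2a, and Mef2c above and then below Tbx5. Annotated exon lengths of 1719 bases for Nkx2-5 to 17132 bases for Mef2c set this scale, and a transcript that uses fewer of the annotated exons would have its level understated.

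**Figure D4:**
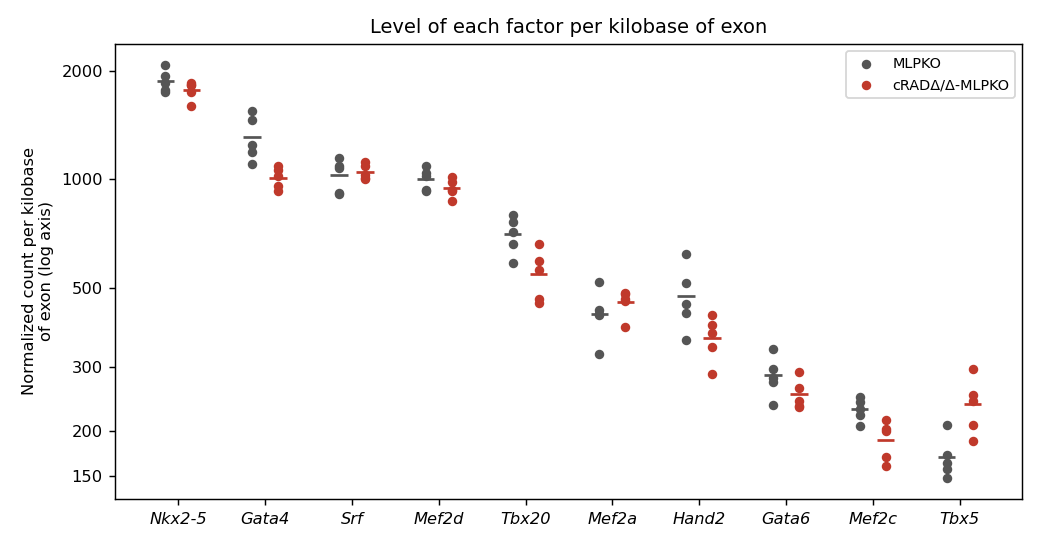
Normalized count per kilobase of exon (log axis) for each factor in each mouse, MLPKO grey and cRADΔ/Δ-MLPKO red, with a bar at each genotype mean and genes ordered by their mean over all 10 mice. Nkx2-5 stands above all others in both genotypes and the bottom 3 are Gata6, Mef2c and Tbx5, with means of 269 to 203.

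The proteins that work with the factors were read as a list of 30 cofactors, all of them tested. EdgeR's quasi-likelihood test called 0 of them, with 13 at an unadjusted p under 0.05 (beside 21.6% of all genes) and a median log2 fold change of 0.01. Limma-voom called 0 and DESeq2 called 6 of 30 (beside 10.0% of all genes). The DESeq2 calls, named after their values were seen, were Camta1, Smyd1, Kat2b, Smarcd3 and Smarca4 lower and Vgll2 higher. Smyd1, a muscle histone methyltransferase that acts upstream of Hand2 in the embryo, had a log2 fold change of -0.50 (95% interval -0.80 to -0.20) at 22117 to 38861 normalized counts in MLPKO and 18148 to 22514 in cRADΔ/Δ-MLPKO mice (edgeR quasi-likelihood adjusted p = 0.0698). Smarcd3, a chromatin remodelling subunit that works with TBX5 and GATA4, and Smarca4, the ATPase of the same complex, had -0.24 and -0.18. The genotypes did not overlap for 4 of the 30 cofactors (beside 6.62% of all genes), named here after their values were seen, with Camta1, Smarcd3 and Smarca4 lower in every cRADΔ/Δ-MLPKO mouse and Wwtr1, the gene for the coactivator TAZ, higher in every one, at a log2 fold change of 0.13 (0.01 to 0.25).

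Myocd, which encodes the SRF coactivator myocardin, had a log2 fold change of -0.08 (95% interval -0.28 to 0.12), and Hopx, which encodes an inhibitor of SRF, had 0.08 (-0.36 to 0.52). Zfpm2, the gene for the GATA4 partner FOG2, had -0.09 (-0.26 to 0.08). Among the class II histone deacetylases that hold MEF2 in check, Hdac4 had -0.36 (-0.71 to -0.00), Hdac5 0.05 (-0.12 to 0.21) and Hdac9 0.45 (0.09 to 0.82). Ep300, an acetyltransferase that coactivates GATA4 and MEF2, had -0.07 (-0.20 to 0.06). None of these 7 passed with edgeR, limma-voom or DESeq2.

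Of 14 relatives in the same families, 7 were tested and 0 passed with edgeR's quasi-likelihood test, 1 at an unadjusted p under 0.05 (beside 21.6% of all genes). DESeq2 called Tbx15 lower (beside 10.0% of all genes called) and limma-voom called 0. Tbx15, named after its values were seen, had a log2 fold change of -1.46 (95% interval -2.33 to -0.60), at 413 to 1879 normalized counts in MLPKO and 206 to 448 in cRADΔ/Δ-MLPKO mice, so the groups overlapped. Tbx3, a T-box repressor that marks the conduction system, had 0.35 (-0.02 to 0.73) and Gata5 had 0.51 (-0.49 to 1.51) at 2 to 24 raw counts. Hand1 and Nkx2-6 had 0 counts in all 10 mice. Gata1, Gata3, Nkx2-3, Tbx4 and Mef2b also stayed under the filter.

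Of 32 other heart transcription factors, 29 were tested and 1 passed with edgeR's quasi-likelihood test, beside 2.74% of all genes. Irx2, an Iroquois homeobox gene, rose from 136 ± 47.3 to 365 ± 157 normalized counts (SD, n = 5 each), a log2 fold change of 1.43 (95% interval 0.78 to 2.07; edgeR quasi-likelihood adjusted p = 0.0315). Its groups did not overlap, at 94.8 to 195 in MLPKO and 246 to 628 in cRADΔ/Δ-MLPKO mice. The call was lost without any one of MLPKO mice 3 and 5 and cRADΔ/Δ-MLPKO mice 2, 4 and 5, at adjusted p of 0.0551 to 0.0807. The median of the list was 0.04, and limma-voom also called 1, beside 2.53% of all genes. DESeq2 called 4 (Irx1 and Irx2 higher, Tead1 and Esrrg lower), beside 10.0% of all genes.

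Genes that these factors are known to activate in the heart were read as a list of targets. Of 36 such targets, 35 were tested, and 9 fell and 0 rose, 25.7% lower calls beside 1.80% of all genes, with a median log2 fold change of -0.30 and 27 of the 35 below 0. DESeq2 called 14 lower, beside 6.09% of all genes. Limma-voom called 8, beside 2.53% of all genes in either direction. Acta1, the skeletal actin gene re-expressed under load and a target of SRF, fell by 1.52 on the log2 scale, Ankrd1, a sarcomere-associated stress gene, by 1.27, and Myh7, the slow myosin heavy chain, by 1.23. Hspb7, Des and Tnnt2, genes of the contractile apparatus and its support, fell by 0.85, 0.78 and 0.57, and Lrrc10, a cardiac gene bound by GATA4 and NKX2-5, by 0.63. The calls of Acta1 and Ankrd1 were lost in 12 and 10 of the 19 alternative fits, at adjusted p of up to 0.120 and 0.111, that of Lrrc10 in 8, those of Hspb7 and Des in 6 each and that of Tnnt2 in 1, while that of Myh7 held in all 19. The edgeR quasi-likelihood adjusted p of the 9 ran from 0.0104 for Myh7 to 0.0492 for Acta1, and the number of targets called was 1 to 3 without any one of MLPKO mice 1 and 5 and cRADΔ/Δ-MLPKO mice 2, 3, 4 and 5, lowest without the last, and 7 to 12 without any one of the others. Most of these genes were already known to differ in these data when the list was made. The share called, the direction and the contrast with the core factors are therefore not independent evidence.

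The natriuretic peptide genes, classic targets of GATA4, did not pass. Nppa had 4385 to 100665 normalized counts in MLPKO and 6042 to 17720 in cRADΔ/Δ-MLPKO mice, with a log2 fold change of -2.05 (95% interval -3.61 to -0.49; edgeR quasi-likelihood adjusted p = 0.124). Nppb had -1.02 (-2.06 to 0.02). Myh6, the fast myosin heavy chain and itself a target of TBX5, MEF2 and SRF, had -0.29 (-0.49 to -0.09; adjusted p = 0.104).

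**Figure D5:**
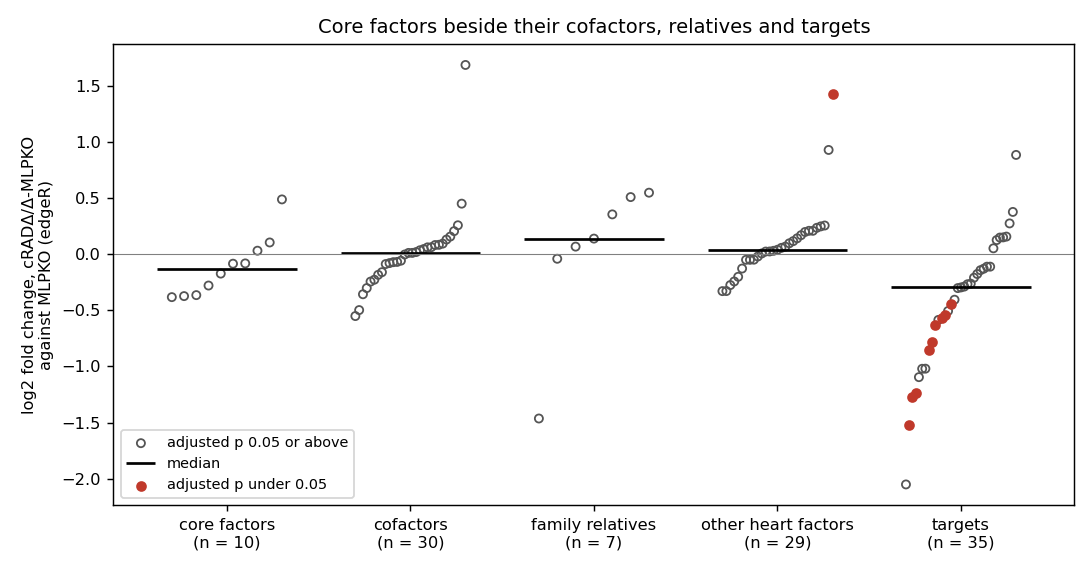
Log2 fold change of cRADΔ/Δ-MLPKO over MLPKO (vertical axis) of each tested gene in the core factors and the 4 gene lists, filled red where edgeR's adjusted p was under 0.05, with a bar at the median. No core factor, cofactor or family relative is filled, 1 other heart factor is, and 9 of the 35 targets are, all below 0. Most targets were already known to differ in these data when they were listed.

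Markers of cell types differed between the genotypes, and calls on them are those of edgeR's quasi-likelihood test unless another tool is named. That test called 2.74% of all genes. The summed level of 10 cardiomyocyte markers was 3009359 to 3438726 in MLPKO and 2299489 to 2856498 in cRADΔ/Δ-MLPKO mice without overlap, with 9 of the 10 lower and 1 (Tnnt2) called. An unadjusted p under 0.05 was found for 5 of them (beside 21.6% of all genes), and DESeq2 called 2 (beside 10.0%). Most of these markers (Myh6, Actc1, Tnnt2, Tnni3, Myl2, Ryr2, Pln and Tcap) are also on the list of targets. The falls of the markers and of the targets are therefore not separate results. The summed level of 10 endothelial markers was 44006 to 51241 and 54190 to 60520, also without overlap, with 9 of 10 higher and 1 (Tek) called. Of the endothelial markers, 8 had an unadjusted p under 0.05 (beside 21.6% of all genes), and DESeq2 called 4 higher (beside 10.0% in either direction). The 10 macrophage markers summed to 8639 to 12648 and 10515 to 22458, all 10 higher and 0 called. All 10 had an unadjusted p under 0.05, beside 21.6% of all genes. DESeq2 called 5, beside 10.0% of all genes, and limma-voom called 0. The summed level of 10 fibroblast markers was 62647 to 87703 and 54117 to 94910. Of these markers 5 were lower and 5 higher, with Dpt and Fbln1 called higher. Smooth muscle and pericyte markers summed to 156904 to 251921 and 122547 to 144700, with 4 of the 9 tested lower and 5 higher, Des called lower and Acta2 and Rgs5 higher. Des, also expressed by cardiomyocytes, made up most of that sum, at 113552 to 211229 in MLPKO and 78685 to 98458 in cRADΔ/Δ-MLPKO mice. Endocardial and epicardial, atrial, and neuron and Schwann cell markers had 0 calls with edgeR's quasi-likelihood test, with 2, 0 and 1 genes at an unadjusted p under 0.05 and 0 called by DESeq2 or limma-voom, and of the skeletal muscle markers only Acta1 was called while Myh4 stayed at 0 in all mice. The part of these shifts in the values of Gata4, Tbx20, Mef2c, Hand2 and Tbx5 was not tested.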

How the data were processed

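RNA from the apical part of the ventricle of 10 mice (5 MLPKO, 5 cRADΔ/Δ-MLPKO) was selected for polyA and sequenced. The deposited table holds raw counts per gene made by the authors, and the submitters' processing notes name FastQC, STAR, featureCounts and GRCm39; versions and strand setting are not given in the sources used here. Of 60676 rows, 3491 held no values. Ensembl identifiers were matched to GENCODE M39.

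The filter kept genes above 10 counts in 6 or more mice and left out Gm and Rik gene models. edgeR 4.0.16 (TMM, quasi-likelihood test) gave log2 fold changes and Benjamini-Hochberg adjusted p over 13453 genes, with 0.05 as threshold. DESeq2 1.42.0, limma-voom (limma 3.58.1), other scalings and filters, a replicate block and fits without single mice were alternatives. DESeq2 is also the tool that the paper names for its own differential test. The edgeR, DESeq2 and limma-voom fits were tested on simulated data. Standard errors are the size of the log2 fold change over the root of the F statistic.

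The members and lists were chosen with earlier results of these data known. Named genes are all members, called genes of each list (at most the 8 with the largest change), chosen cofactors, relatives and targets, and genes beside a member; 1 called target is not reported here.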

Additional observations from a re-analysis of the deposited data

Results flagged for a closer look

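In 26 groups of 5 mice (the 10 factors and the 3 tested neighbours in each genotype), 2 held a mouse far from the others, where chance flags about 1 in 20 groups. For Mef2a, cRADΔ/Δ-MLPKO mouse 3 had 6021 normalized counts and the other 4 mice lay close together up to 7491, so that the gap made up 0.758 of the range, above Dixon's critical value for 5 samples. For Hand2os1, MLPKO mouse 2 had 2222 normalized counts in a range that began at 1520, with a gap of 0.736 of the range.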

How the results depend on the processing

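Each log2 fold change of the 10 factors kept its sign in all 19 alternative fits, except that of Srf, which was -0.00062 without MLPKO mouse 3 and -0.0091 without MLPKO mouse 4 and ranged from -0.0091 to 0.072 when single mice were left out. Across all genes tested, the number called was 369, and it was 1298 with DESeq2 and 47 to 826 when single mice were left out, lowest without MLPKO mouse 5 and highest without MLPKO mouse 4. It was also 50 to 142 without any one of MLPKO mouse 1 and cRADΔ/Δ-MLPKO mice 2, 3, 4 and 5. The number of core factors called was 0, and it was 4 with DESeq2, 2 with the replicate block (Tbx5 at an edgeR adjusted p of 0.0481 and Hand2 at 0.0466) and 0 to 1 without single mice. Of the cofactors 0 were called, 6 with DESeq2, 1 with RLE size factors, 1 with the replicate block and 0 to 2 without single mice. Of the family relatives 0 were called, 1 with DESeq2, 1 with the replicate block and 0 to 1 without single mice. Of the other heart factors 1 was called, 4 with DESeq2 and 0 to 2 without single mice. Of the targets 9 were called, 14 with DESeq2 and 1 to 12 without single mice. The cause of these shifts was not tested. Upper quartile scaling called 380 genes, 46.1% of them higher, against 34.4% in the main comparison, and moved the median log2 fold change of all genes from 0.01 to 0.04. The labels number the mice of both genotypes from 1 to 5, but these are different animals, and the deviations of same-numbered mice correlated at -0.04 to 0.15, so the numbers do not pair the mice. The replicate block called 281 genes in all. The factors had 549 raw counts or more in every mouse, and the median reach of their 95% intervals was 0.20 on either side on the log2 scale.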

Other observations

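The Iroquois homeobox genes, which set ventricular and conduction identity, were looked at together after the values of Irx2 were seen. Irx1 had 226 ± 104 normalized counts in MLPKO and 430 ± 83.9 in cRADΔ/Δ-MLPKO mice (SD, n = 5 each), a log2 fold change of 0.93 (95% interval 0.33 to 1.52) with overlapping groups, and it passed with DESeq2 (adjusted p = 0.0119) but not with edgeR's quasi-likelihood test (0.0808). Irx3 had -0.20 (95% interval -0.68 to 0.28), Irx4, the ventricular member, -0.27 (-0.57 to 0.02) and Irx5 -0.33 (-0.99 to 0.33), and none of these 3 passed with either tool.

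The TEAD and ERR genes were chosen after their values were seen. Tead1, whose product binds DNA for the coactivators YAP and TAZ, was the most abundant TEAD gene and had a log2 fold change of -0.33 (95% interval -0.53 to -0.13; edgeR quasi-likelihood adjusted p = 0.0709, DESeq2 0.0133). Tead2, Tead3 and Tead4 had 0.17, 0.04 and 0.24 and did not pass. Esrrg, an orphan nuclear receptor of oxidative metabolism, had -0.24 (-0.41 to -0.08) with no overlap between the genotypes and a DESeq2 adjusted p of 0.0409, and its relatives Esrra and Esrrb had 0.02 and 0.06.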
